A study of Mus musculus with 4 samples.

Results

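Activated keratinocytes of day 4 wounds were taken as the wound cells that carried both a marked load of Krt6a and Krt16 transcripts and no transcript of 3 hair follicle genes. On the slide of male wounded dorsal skin, a cell with at least 10 transcripts belonged to this class when its Krt6a and Krt16 transcripts together reached 8 and it held no Krt75, Krtap17-1 or Shh transcript. The cells were thus chosen by their own Krt6a and Krt16 transcripts, which are given below as a description. This rule found 6882 cells among the 123431 cells of 3 wound sections that held at least 10 transcripts, of 426792 such cells on all 4 slides. The comparison class was the 10778 wound cells that held Krt5 but neither Krt6a nor Krt16. A further 1324 wound cells passed the Krt6a and Krt16 threshold and were left out because they carried a follicle gene.

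Transcripts of 328 panel genes were located by imaging (Xenium, in which single RNA molecules are decoded in place on a tissue section). The mice carried the TRE-Pitx1 and Krt5-rtTA transgenes, so that doxycycline induces Pitx1 in cells with an active Krt5 promoter. In the paper's account, littermates were kept on normal chow (Control) or on doxycycline chow (PITX1+) from the resting phase of the hair cycle. Full-thickness dorsal wounds of males were collected on day 4. Whether the conditions also differed in transgenes was not tested here. The slide label gives both genotypes and both treatments, Vehicle and Doxycycline, but does not say which section is which. The conditions used here follow the rule that the first section along the slide is Control and the other two are PITX1+. The slide therefore held 1 Control section and 2 PITX1+ sections, with 18274, 38198 and 66959 cells and 1581173, 3286746 and 5368511 transcripts. Nothing in the labels says that the sections came from separate mice, so p-values over sections measure only the spread between these sections.

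Krt6a and Krt16 form a keratin pair that is hardly made in resting interfollicular epidermis and is switched on when the epidermis is injured. Cells at a wound edge that make this pair flatten, loosen their contacts and move over the wound bed, while the cells behind them divide and rebuild the layers. Krt17, a further stress keratin, is made in the same setting, and alarmins and ligands of the EGF receptor are known products of such cells. The pair is also made constitutively in parts of the hair follicle and in oral epithelium, which is why follicle genes enter the rule.

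Activated cells numbered 947 in the Control wound, 2684 in PITX1+ wound 1 and 3251 in PITX1+ wound 2. Both keratins were found in 97.0% of them. The median cell held 8 Krt6a and 14 Krt16 transcripts in the Control wound, 6 and 9 in PITX1+ wound 1, and 7 and 9 in PITX1+ wound 2. Krt5, the basal keratin that the rule does not ask of activated cells, was present in 90.8%, 92.2% and 91.3% of them. The threshold cut a continuous range of values. The 1483 cells just below it, with a sum of 6 or 7, had a median of 123 transcripts and 84.8% of them held Krt5, against 138 transcripts and 85.3% for the 1122 cells just above it, with a sum of 8 or 9.

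A threshold on transcripts favors cells with many transcripts. The activated cells held a median of 259, 199.5 and 209 transcripts in the Control wound and in PITX1+ wounds 1 and 2, against 76, 69 and 67 in the comparison cells. Their median outlined area was 117, 99.5 and 101 µm2, against 75.3, 65.0 and 60.1 µm2. All levels between the classes are therefore given relative to the transcripts outside the genes that the rule used.

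The keratinocyte label held in the activated cells and held less well in the comparison cells. Summed over 8 keratinocyte markers, the activated cells carried 39.6 transcripts each, the comparison cells 7.43 and the remaining wound cells 3.01. Without Krt5, a gene of the rule, 7 of these markers made 177078 to 187204 CPM (transcript counts scaled to a common total of 1000000) in the activated cells of the 3 sections. In the comparison cells they made 79383 to 108495 CPM. At least 2 transcripts of fibroblast markers were found in 6.90% of activated cells, 43.8% of comparison cells and 44.9% of the remaining cells. At least 2 transcripts of 5 endothelial markers, Flt1 among them, were found in 9.55%, 3.98% and 7.89%, although their sum was lower in activated cells of each section (197, 2693 and 2559 CPM against 3070, 3353 and 4805). The 6 fibroblast markers together made 1619 to 3214 CPM in the activated cells of the 3 sections and 49564 to 53041 CPM in the comparison cells. The 7 macrophage markers made 1224 to 1420 CPM against 11963 to 16215 CPM, and the 6 neutrophil markers 798 to 3457 CPM against 4613 to 16452 CPM. None of the markers in these 3 lists was at 0 in either class. By the edgeR test described below, all 6 fibroblast and all 7 macrophage markers were lower in activated cells. Of the 6 neutrophil markers only 2 were lower, and 1 was higher. The part that neighboring stroma plays in the comparison cells was not tested, and some values below are also given against comparison cells with at least 3 Krt5 transcripts.

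**Figure D1:**
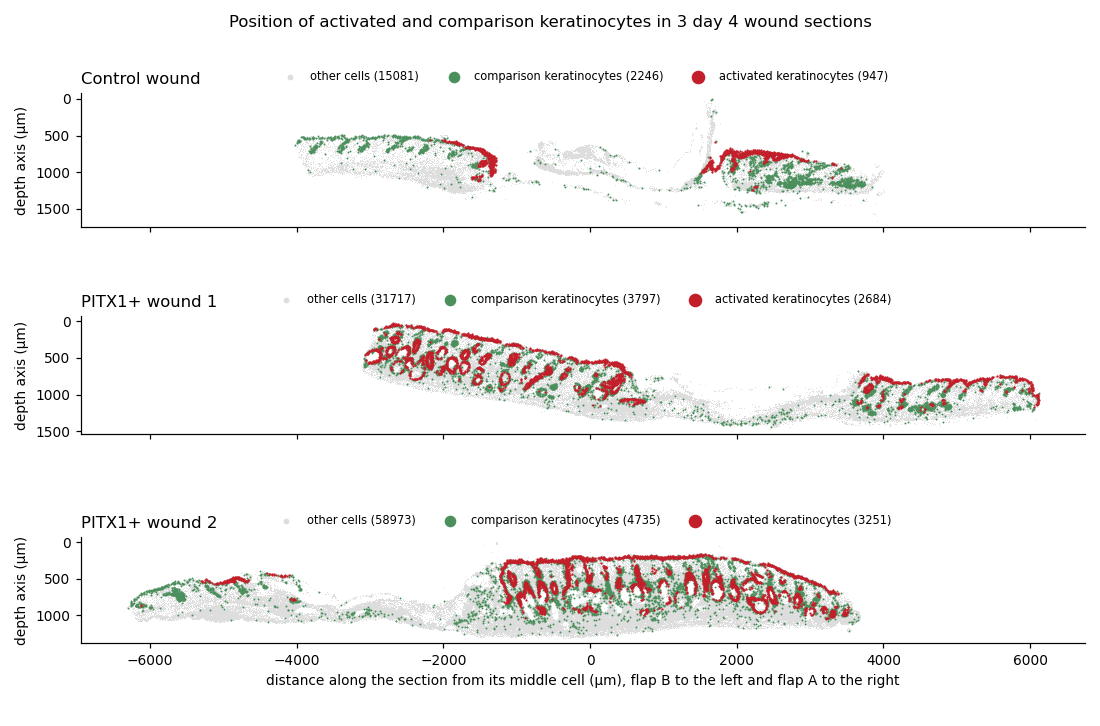
Position of each activated (red) and comparison cell (green) in the 3 wound sections, in µm along and across each section, with other cells in gray. Activated cells lay along at least part of the surface in all 3 sections. Of the 947, 2684 and 3251 activated cells 73.3%, 35.2% and 32.4% lay within 75 µm of the outermost keratinocytes.

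The promoters of 3 genes that stood among the highest in activated over comparison cells are shown, chosen because they held both of the letter runs marked. Sequences are the 250 bases before the annotated start, from RefSeq on build GRCm38.p6, written 5′ to 3′ on the gene's strand. Of the 10 genes with the greatest increase, 6 had an entry, Sprr1b, Sprr2d, Serpinb3b, Stfa3, Areg and Flg. Krt6a, Krt16 and Krt17 had none. Capitals mark the AP-1 letters TGANTCA and the TATA letters TATAAA, searched on both strands.
Sprr1b (chr3:92438780-92439029, - strand): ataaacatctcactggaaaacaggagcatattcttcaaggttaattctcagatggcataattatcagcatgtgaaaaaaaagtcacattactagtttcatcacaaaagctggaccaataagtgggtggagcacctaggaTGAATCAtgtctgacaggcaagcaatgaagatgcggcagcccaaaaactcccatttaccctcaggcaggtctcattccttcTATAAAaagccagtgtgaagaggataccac
Sprr2d (chr3:92338890-92339139, + strand): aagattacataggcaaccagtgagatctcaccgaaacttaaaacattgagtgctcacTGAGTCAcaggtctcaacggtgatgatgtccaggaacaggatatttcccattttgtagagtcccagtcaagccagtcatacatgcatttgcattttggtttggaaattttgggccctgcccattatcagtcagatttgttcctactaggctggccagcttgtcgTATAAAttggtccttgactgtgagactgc
Flg (chr3:93273296-93273545, + strand): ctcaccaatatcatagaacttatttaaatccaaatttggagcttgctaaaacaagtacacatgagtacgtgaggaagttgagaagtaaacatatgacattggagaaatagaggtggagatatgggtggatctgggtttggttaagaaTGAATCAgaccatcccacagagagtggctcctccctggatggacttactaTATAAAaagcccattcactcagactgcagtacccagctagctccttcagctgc

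The AP-1 letters began 111, 193 and 103 bases before the start of Sprr1b, Sprr2d and Flg, and the TATA letters 30, 29 and 53 bases before it. AP-1 letters were present in 3 of the 6 promoters and in 7.82% of the 27025 gene promoters of the same length, or 13.6% of those of 235 panel genes. TATA letters were present in 5 of 6, in 14.3% of all promoters and in 22.1% of panel promoters. The letters TAATCC, bound by PITX proteins, were in 0 of 6, in 7.21% of all promoters and in 6.38% of panel promoters. A match is a description of these letters and not evidence of binding.

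Small proline-rich proteins, late differentiation proteins, desmosomal cadherins and EGF receptor ligands stood higher in activated than in comparison cells, and 7 of 13 hair follicle genes stood lower. Transcripts were summed per section and class and compared within sections by edgeR's quasi-likelihood test. Of 320 genes tested, 95 were higher and 113 lower at an adjusted p under 0.05, or 29.7% and 35.3% of all genes tested (65.0% in either direction). The 6 genes that chose the cells were left out. Differences are on the log2 scale of TMM-normalised CPM, on which the median of all genes was -0.39. Scaling by library size in its place moved that median by -1.45 and gave 44 genes higher and 195 lower. A gene that TMM placed between 0 and 1.45 above the comparison cells thus stood near or below them by library size.

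Cornified envelope precursors of the small proline-rich (SPRR) family and protease inhibitors of the stefin and serpin families rose together. Of 12 listed genes of this kind 11 rose and 0 fell, with a median difference of 3.92, and 9 rose by library size. Sprr1b, a cross-linked envelope precursor, stood at 62581, 23663 and 28645 normalised CPM in the activated cells of the Control wound and PITX1+ wounds 1 and 2, and at 283, 202 and 450 in the comparison cells. The classes did not overlap for this gene, and the log2 difference was 6.87 ± 0.48 (SE from the test, n = 3 sections, adjusted p = 1.7e-06). Here and below, this SE is the size of the log2 difference over the square root of the test's F value. It is not the spread of the 3 section differences. Sprr2d stood at 72048, 22788 and 62163 against 383, 1039 and 3847 (5.23 ± 0.67, adjusted p = 3.5e-05). Stfa3, a stefin that inhibits cathepsins, stood at 93895, 14235 and 22148 against 1739, 764 and 1239 (4.70 ± 0.44, adjusted p = 2.9e-06). For Stfa3 the Control wound was the highest of the 3 in both classes. Wfdc3 was the listed gene that did not pass.

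Genes of the suprabasal and cornified layers rose with them. Of 10 cornification genes 9 rose and 0 fell (median 4.32, 8 higher by library size), and of 8 suprabasal genes 6 rose and 0 fell (median 3.72, 6 higher and 1 lower by library size). Krt1, the type II keratin of spinous cells, stood at 120943, 37670 and 48576 normalised CPM against 4340, 1045 and 2575 (log2 difference 4.74 ± 0.40, adjusted p = 1.7e-06). The late envelope proteins loricrin (Lor, 4.38 ± 0.40), filaggrin (Flg, 4.59 ± 0.36), hornerin (Hrnr, 4.46 ± 0.38) and involucrin (Ivl, 4.27 ± 0.40) rose by similar amounts. Gsdmc, a gasdermin of the differentiated epidermis, rose by 5.04 ± 0.41. Klf4, a transcription factor of barrier formation, rose by 3.56 ± 0.34. Notch1 and Krt77 did not pass the test, with -0.47 and 0.22, and Notch1 was the gene lower by library size.

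Desmosomal cadherins, which hold keratinocytes together, rose in 6 of 8 listed genes and fell in 1 (median 3.04, 5 higher and 2 lower by library size). Dsc1, Dsg1a and Dsg1b are also on the suprabasal list, so the lists are not separate counts. Dsc2 stood at 8869, 16690 and 21844 normalised CPM against 259, 962 and 965 (4.56 ± 0.36, adjusted p = 1.7e-06). Dsg3, the desmoglein of basal and oral keratinocytes, stood at 20422, 23653 and 26371 against 2689, 5142 and 4645 (2.54 ± 0.33, adjusted p = 3.5e-05). The member that fell was Dsg4, a desmoglein of the hair shaft, at -2.78.

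Of 6 genes of the EGF receptor system 6 rose (median 2.54), with 4 by library size and 5 against comparison cells with at least 3 Krt5 transcripts. Areg (amphiregulin) stood at 6453, 5305 and 3786 normalised CPM against 368, 156 and 131 (4.69 ± 0.40, adjusted p = 1.7e-06). Hbegf, a ligand that drives keratinocyte migration, stood at 9271, 6708 and 7083 against 310, 377 and 547 (4.24 ± 0.38, adjusted p = 2.1e-06). Tgfa stood at 4462, 4547 and 4653 against 772, 658 and 545 (2.80 ± 0.35, adjusted p = 2.8e-05). Its levels in the 3 sections of activated cells lay close together. The receptor Egfr rose by 0.87 ± 0.31 (adjusted p = 0.025) but was at -0.59 by library size.

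Of 16 alarmins and cytokines 8 rose and 2 fell (median 1.12), while library size scaling gave 4 higher and 6 lower. Il1f6 (IL-36α), an epithelial cytokine of the IL-1 family, stood at 18101, 4113 and 5183 normalised CPM against 199, 106 and 139 (5.66 ± 0.42, adjusted p = 1.7e-06). S100a8, an alarmin shared by stressed keratinocytes and neutrophils, stood at 40821, 13300 and 41279 against 1371, 2569 and 8827 (3.11 ± 0.52, adjusted p = 0.00024). Il1rn, the IL-1 receptor antagonist, rose by 2.45 ± 0.37. Il1b, mainly a myeloid cytokine, stood at 976, 2338 and 4432 against 1799, 2003 and 8165 and did not pass (-0.51 ± 0.35, adjusted p = 0.21). Against comparison cells with at least 3 Krt5 transcripts, Il1b was higher in activated cells, by 1.22 (adjusted p = 0.042).

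Genes of migration and of basal adhesion did not move one way. Of 15 migration genes 5 rose and 5 fell (median 0.28). The 5 that rose were Itgb6, Plet1, Sdc1, Sdc4 and Palld, of which Itgb6, an integrin chain made by migrating keratinocytes, rose by 2.29 ± 0.41 and Sdc1, a cell surface proteoglycan, by 2.41 ± 0.33. Sdc4 and Palld were at -0.31 and -0.43 by library size, and 1 migration gene was higher and 9 were lower under that scaling. The 5 that fell were Mmp14, Mmp3, Tnc, Fn1 and Thbs1, which fibroblasts also make. The part of fibroblasts in these values was not tested. Of 11 basal adhesion genes 2 rose, Lama3 and Trp63, and 3 fell (median 0.15). Lama3 and Trp63 were at -0.0036 and -0.56 by library size, under which 0 rose and 8 fell. Against comparison cells with at least 3 Krt5 transcripts the median was -0.76, with 0 higher and 3 lower, and Lama3 (0.54, adjusted p = 0.22) and Trp63 (-0.07, adjusted p = 0.84) did not pass. Igfbp3, an IGF-binding protein, stood at 2754, 3445 and 5001 against 1730, 6445 and 9025 and did not pass (-0.38 ± 0.37, adjusted p = 0.38).

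Of 7 retinoid genes 5 rose, Crabp2 and Aldh1a3 among them, while Crabp1, a further carrier of the ligand, and Cyp26b1 fell. Crabp2, which delivers retinoic acid to its nuclear receptors, stood at 35225, 48405 and 49357 normalised CPM against 2182, 2968 and 3489 (3.95 ± 0.35, adjusted p = 2e-06). Aldh1a3, which makes retinoic acid, stood at 3187, 8885 and 8554 against 937, 656 and 930 (2.92 ± 0.42, adjusted p = 8.7e-05). Cyp26b1, which degrades retinoic acid, stood at 1361, 779 and 647 against 1613, 3320 and 5245 (-1.81 ± 0.51, adjusted p = 0.0077). The median over the list was 1.67, and 3 rose and 2 fell by library size.

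Of 13 hair follicle genes 7 fell and 2 rose (median -1.53, against -0.39 for all genes), and 9 fell and 0 rose by library size, under which 195 of all 320 genes fell. Lgr5, a follicle stem cell receptor, was at 15.7, 195 and 52.9 against 1245, 1607 and 600 (-3.90 ± 0.61, adjusted p = 0.00016). Krt15, a keratin of resting basal and bulge cells, is on the basal adhesion list and not among these 13 genes. It was at 889, 722 and 127 against 8765, 4028 and 2015 (-3.24 ± 0.40, adjusted p = 2.6e-05). The absence of Krt75, Krtap17-1 and Shh was required of the activated cells and not of the comparison cells. The follicle counts are therefore partly set by the rule. When it was required of both, 8 follicle genes fell and 3 rose (median -1.66), and 225 genes passed in place of 208. Among the genes lowest in activated cells were Adgrl4 and Vwf of endothelium, Lum and Tnxb of fibroblasts, Cd209f and Ccl8 of macrophages, Mlana of melanocytes, Des of muscle and Lhx2 of follicle stem cells.

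Smaller lists were mixed. Of 7 immediate early and stress genes 4 rose and 1 fell (median 0.91), 0 and 2 by library size. Of 5 sebaceous genes 2 rose and 2 fell (1 and 3 by library size), of which Fabp5, a fatty acid carrier also made by stressed epidermis, rose by 3.60 ± 0.37. Of 6 Wnt ligands Wnt4 rose and Wnt6 fell (median 0.21, or -0.52 against comparison cells with at least 3 Krt5 transcripts), but 0 rose and 3 fell by library size. Krt17 stood at 165683, 152700 and 185160 normalised CPM against 19824, 30093 and 26310 (2.74 ± 0.40, adjusted p = 9.8e-05). Restricted to the surface, 144 genes passed in either direction, with 11 of 12 SPRR and inhibitor genes, 8 of 10 cornification genes and 5 of 6 EGF family genes higher. Other lists went the other way there, with 2 higher and 8 lower of 13 hair follicle genes, 2 and 4 of 15 migration genes and 0 and 3 of 11 basal adhesion genes. The share of all genes that rose in this setting is not given here. Restricted to the deeper epithelium, 192 genes passed.

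**Figure D2:**
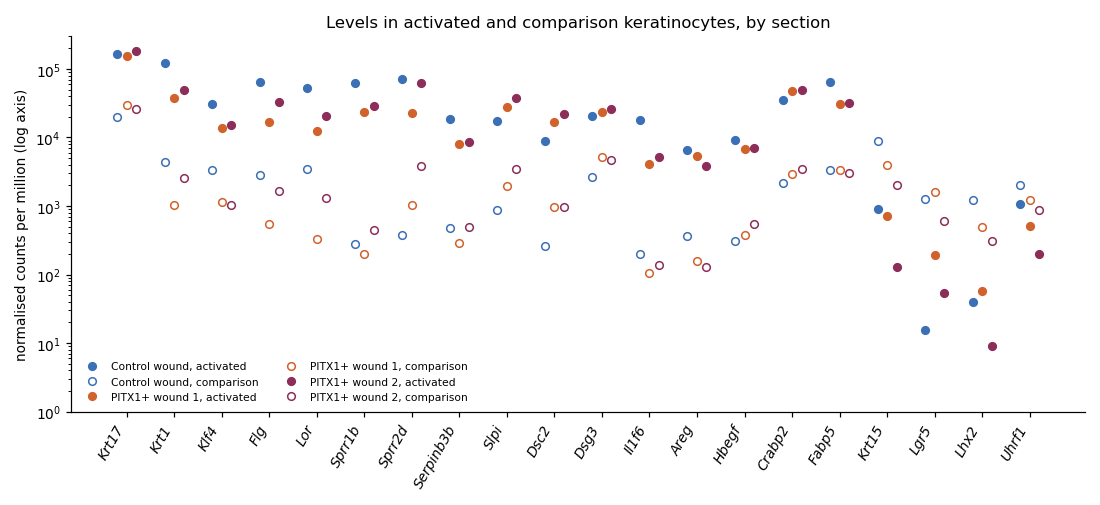
Normalised CPM on a log axis for genes of the lists in activated cells (filled) and comparison cells (open) of each section. Sprr1b was at 23663 to 62581 in activated cells and 202 to 450 in comparison cells, and Krt15 at 127 to 889 and 2015 to 8765.

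Activated cells made up a share of 29.7% of activated plus comparison cells in the Control wound (exact binomial 95% interval 28.1 to 31.3), 41.4% in PITX1+ wound 1 (40.2 to 42.6) and 40.7% in PITX1+ wound 2 (39.6 to 41.8). These intervals, here and below, cover counting error only. The condition was not tested on these shares, since 1 Control section has no spread of its own. The difference of 11.4 percentage points between the conditions was 2.67 with a threshold of 16 transcripts and 6.45 when follicle genes were barred from the comparison cells too. As a share of all wound cells with at least 10 transcripts, the values were 5.18%, 7.03% and 4.86%, and the Control value then lay between those of the PITX1+ wounds.

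The shares of the conditions lay closer together at the surface as a whole than below it. Within 75 µm of the outermost keratinocytes the shares were 56.6%, 65.7% and 59.5%. Deeper, they were 13.6% (12.0 to 15.2), 35.7% (34.3 to 37.1) and 37.0% (35.8 to 38.2). Each section holds a wound bed of 2700 to 2800 µm between a pair of skin flaps, called A and B here. The deeper share was 7.93% and 26.0% in the Control flaps, 12.8% and 44.1% in flaps A and B of PITX1+ wound 1, and 40.1% and 2.44% in those of PITX1+ wound 2. The high deeper shares of the PITX1+ wounds therefore rested on 1 flap of each section, and the other flap of each lay below Control flap B. Flap B of PITX1+ wound 2 held 139 of that section's 3251 activated cells.

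Activated cells reached farther from the wound edge in PITX1+ sections. The epithelial front was the edge of the stretch without Krt5-rich cells, and distance was measured from it along the section. Within 500 µm of the front, activated cells were 88.7% of the surface cells of both classes (activated and comparison) in the Control wound (84.7 to 91.9), 63.6% in PITX1+ wound 1 and 68.4% in PITX1+ wound 2. Beyond 1500 µm, 10 of 318 surface cells of both classes were activated in the Control wound (3.15%, 1.52 to 5.71), 465 of 702 in PITX1+ wound 1 (66.2%, 62.6 to 69.7) and 541 of 1057 in PITX1+ wound 2 (51.2%, 48.1 to 54.2). In the first 250 µm the shares were 82.6% and 96.1% in the Control flaps 36.4% and 42.6% in those of PITX1+ wound 1 and 75.6% and 31.8% in those of PITX1+ wound 2. Between 250 and 500 µm they were 96.0% and 68.5%, 94.8% and 90.5%, and 75.3% and 11 of 22 cells, so that the flaps overlapped there.

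The Control flaps did not reach equally far. In flap A, 94.5% of surface cells of both classes were activated between 500 and 1000 µm, 81.2% between 1000 and 1500 µm and 11.6% between 1500 and 2000 µm, and the last activated cell lay at 1906 µm. In flap B the last lay at 914 µm. Cells of both classes reached 2190 µm in Control flap A and 2681 µm in Control flap B (99th percentile). The Control flaps were thus shorter than the longest PITX1+ flaps, and shares beyond 1500 µm cover a shorter stretch of the Control wound. In PITX1+ wound 1 the last lay at 2526 and 3874 µm in flaps whose cells of both classes reached 2502 and 3790 µm (99th percentile), and in flap A of PITX1+ wound 2 at 4767 µm, with 4698 µm as that flap's reach. Activated cells thus extended to the end of these 3 flaps. Flap B of PITX1+ wound 2 was different, although it reached 2288 µm. Its last activated surface cell lay at 1352 µm, and between 1500 and 2000 µm it held 0 of 145 (95% interval 0 to 2.51%). Without this flap the share beyond 1500 µm in PITX1+ wound 2 was 62.6% (541 of 864).

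Deeper, the sections kept this order on the whole. Within 500 µm they were 53.8%, 35.6% and 43.8% of deeper cells of both classes in the Control wound and in PITX1+ wounds 1 and 2. Beyond 1500 µm they were 0.439% (2 of 456), 44.3% (1214 of 2740) and 35.8% (1311 of 3663). The flaps differed, since between 1500 and 2000 µm the deeper share was 16.4% and 45.8% in flaps A and B of PITX1+ wound 1 and 40.4% and 0% (0 of 188) in those of PITX1+ wound 2.

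**Figure D3:**
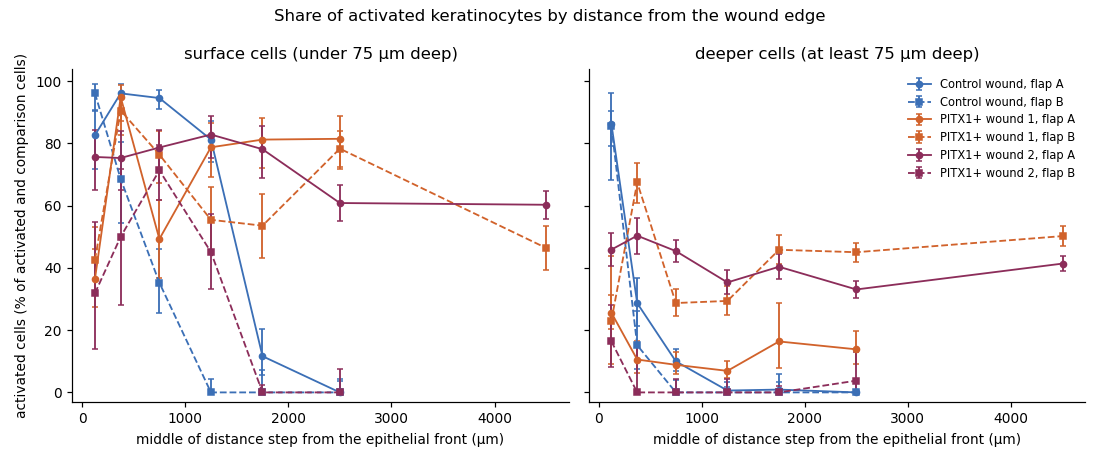
Share of activated cells among activated plus comparison cells, in percent, by distance from the epithelial front in µm, for surface and deeper cells of each section, with exact binomial 95% intervals. Beyond 1500 µm the Control wound was at 3.15% at the surface and PITX1+ wounds 1 and 2 at 66.2% and 51.2%.

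Of 276 genes tested between surface and deeper activated cells within sections, 33 were higher at the surface and 18 deeper at an adjusted p under 0.05, or 12.0% and 6.52% of all (18.5% in either direction). This comparison was chosen after the map had been seen. By library size, which moved the median of all genes by -0.64, the counts were 14 and 69. Leaving out 1 section moved the count from 51 to between 11 and 103, with 103 without the Control wound, 11 without PITX1+ wound 1 and 16 without PITX1+ wound 2.

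Of 10 cornification genes 9 were higher at the surface (median 4.18, 5 of 10 by library size), and of 8 suprabasal genes 5 were, but 2 higher and 1 lower by library size. Lor stood at 41996, 24356 and 52005 normalised CPM in surface activated cells of the Control wound and PITX1+ wounds 1 and 2, and at 1339, 374 and 235 in deeper ones (log2 difference 6.25 ± 0.71, adjusted p = 0.0071). Krt78 differed by 5.82 ± 0.69, Flg by 4.76 ± 0.56 and Il1f6 by 3.08 ± 0.30. Cd207, the langerin of Langerhans cells, was also higher at the surface, by 3.73 ± 0.51. Krt6a, by which the cells were chosen, is given as a description without a test. It stood at 42734, 41729 and 48375 CPM in deeper activated cells and at 35086, 33284 and 25255 CPM at the surface.

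Genes higher in deeper activated cells included some of the follicle opening and of other cell types. Krt79, a keratin of the follicle infundibulum and sebaceous duct, stood at 359, 2978 and 1107 normalised CPM at the surface and at 6968, 16234 and 6577 deeper (-3.06 ± 0.45, adjusted p = 0.014). Sox9, a transcription factor of the follicle, stood at 548, 1097 and 672 against 3648, 5901 and 4377 (-2.62 ± 0.26, adjusted p = 0.0068). Plet1, a surface protein of the follicle junctional zone and of migrating epidermis, differed by -2.36 ± 0.50 and Mmp9, a gelatinase also made by leukocytes, by -2.26 ± 0.58. Of 15 migration genes 3 were higher deeper (9 by library size) and 0 at the surface. The stromal collagen gene Col5a1 (-1.86, adjusted p = 0.031), Igfbp7 (-1.99, adjusted p = 0.03) and Cd34 (-2.55, adjusted p = 0.042), made by follicle stem cells and by endothelium, were also higher deeper, and these 3 were chosen after their values were seen. Of 13 hair follicle genes, 11 tested, 3 were higher deeper (5 by library size) and 0 at the surface. The deeper cells of the rule lacked Krt75, Krtap17-1 and Shh by construction, and whether they lay in follicles was not tested.

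**Figure D4:**
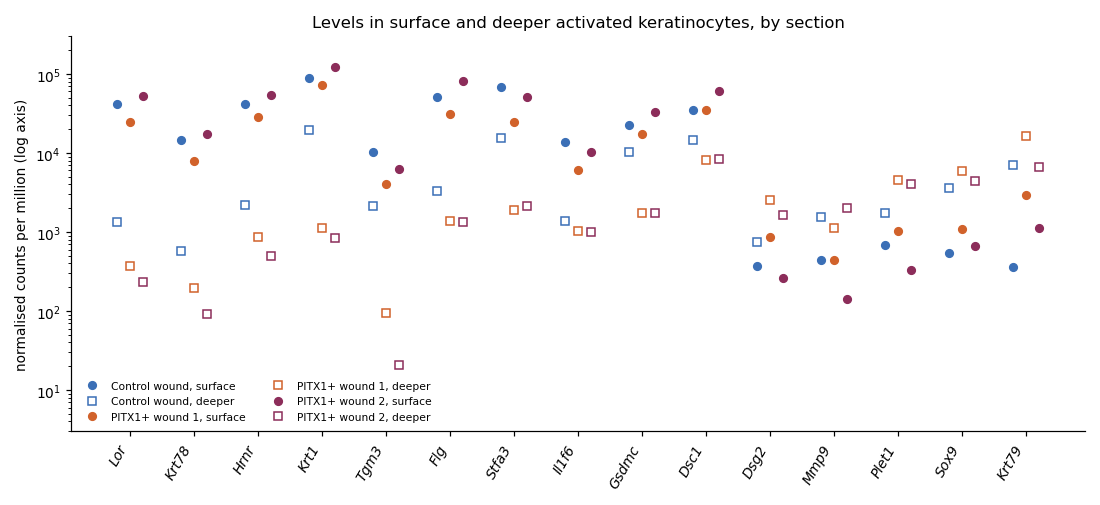
Normalised CPM on a log axis in surface (filled circles) and deeper (open squares) activated cells of each section. Lor stood at 24356 to 52005 at the surface and 235 to 1339 deeper, and Sox9 at 548 to 1097 and 3648 to 5901.

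Among surface activated cells, those within 500 µm of the front were compared with those farther away, with 289, 239 and 147 near cells and 404, 707 and 907 far cells in the Control wound and PITX1+ wounds 1 and 2. This too was chosen after the map had been seen. Of 222 genes tested, 6 were higher near the front and 6 farther away, 2.70% each and 5.41% together, with 38 and 8 by library size. Slpi, a secreted protease inhibitor, stood at 12634, 15627 and 23544 normalised CPM near the front and at 3227, 4779 and 10413 farther away (1.62 ± 0.24, adjusted p = 0.022). Dsc2 stood at 5075, 11429 and 9376 against 1321, 3866 and 4486 (1.52 ± 0.24, adjusted p = 0.022). Lama3, a chain of laminin 332 that migrating keratinocytes lay down, stood at 4023, 5138 and 1241 against 1538, 1308 and 643 (1.46 ± 0.27, adjusted p = 0.023). Sprr3, Anxa3 and Id3 were the others. Krt77, a keratin of differentiated interfollicular epidermis, was lower near the front, at 143, 182 and 68.9 against 834, 15108 and 1232 (-4.52 ± 0.76, adjusted p = 0.022), as were Fcgbp, Clca3a2, Cd52, Rxra and Stfa3. Without PITX1+ wound 2, or with 250 µm as the limit, 0 genes passed edgeR's test, and 50 and 68 had an unadjusted p under 0.05.

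The transgene was checked first between conditions. Pitx1 stood at 98.3 CPM in the activated cells of the Control wound (26 transcripts, exact Poisson 95% interval 64.2 to 144), 672 in PITX1+ wound 1 (604 to 746) and 283 in PITX1+ wound 2 (245 to 325). In the comparison cells it stood at 20.1, 599 and 291 CPM. Over all activated cells the assigned Control section was thus the lowest, as it was at the surface, with 76.9, 302 and 110 CPM. By flap the surface levels overlapped, at 51.2 and 154 CPM in the Control wound, 390 and 238 CPM in PITX1+ wound 1 and 101 and 176 CPM in PITX1+ wound 2. Within the Control wound, Pitx1 was at 45.5 CPM in flap A and 204 CPM in flap B, from 8 and 18 transcripts. In PITX1+ wounds flaps A and B were at 596 and 692 CPM in wound 1 and at 284 and 269 CPM in wound 2. Flap B of wound 2 rested on 8 transcripts, and its interval (116 to 530 CPM) overlapped that of Control flap B (121 to 323 CPM). On the TMM scale Pitx1 was higher in activated than in comparison cells by 1.96 ± 0.58 (adjusted p = 0.0098). It did not pass by library size (0.57, adjusted p = 0.37), against comparison cells with at least 3 Krt5 transcripts (1.00, adjusted p = 0.20) or at the surface alone (0.86, adjusted p = 0.41).

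Between conditions, activated cells of PITX1+ wounds carried more of the oral keratin Krt4 in both layers. Over all activated cells they also carried more of several inflammatory genes and less of some late differentiation genes. The alarmins and cytokines named below as higher, and the late differentiation genes named as lower, were not called at the surface. The interleukin receptor gene Il18r1 was called there. Its surface level was 320 and 405 CPM in the Control flaps. It was 1646 and 2764 CPM in PITX1+ wound 1 and 1274 and 528 CPM in PITX1+ wound 2. A gene was called where both PITX1+ sections lay at least 2-fold from the Control section in the same direction, with at least 20 CPM in a section. By this rule 84 genes were higher and 15 lower of 304 at that level, 27.6% and 4.93% (32.6% in either direction). TMM in place of library size gave 63 and 31. There is no test behind these calls, since 1 Control section has no spread of its own. The layers were not equally sampled, with 73.3%, 35.2% and 32.4% of activated cells at the surface, so the main values are also given by layer. Within surface cells 43 genes were higher and 3 lower of 306, and within deeper cells 47 and 49 of 301. Genes called in all 3 ways numbered 11 higher (Abca8a, Alas2, Col14a1, F10, Gstm5, Il18r1, Itgb3, Krt4, Krt7, Sprr3 and Wif1) and 1 lower (Ptprz1). The first way pools both layers, so the ways are not independent. At the surface the flaps of the conditions overlapped for Alas2, Col14a1, Itgb3 and Wif1. Alas2 was at 174 CPM in Control flap B and 70.4 CPM in flap B of PITX1+ wound 2. Col14a1 is also one of the fibroblast markers.

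Krt4, the keratin of the layers above the basal cells in oral and esophageal epithelium, stood at 64.3 CPM in the Control wound (17 transcripts), 3224 in PITX1+ wound 1 and 4123 in PITX1+ wound 2. At the surface it stood at 14.4 CPM from 3 transcripts (exact Poisson 95% interval 2.97 to 42.2), against 4923 (4617 to 5243) and 7333 (7000 to 7677). Deeper it stood at 251, 2211 and 2376 CPM, where the Control value came from 14 transcripts in 5 cells of flap A, with 0 in the 151 deeper cells of flap B. All 4 PITX1+ flaps were high at the surface, at 6230 and 3979 CPM in wound 1 and 7004 and 9862 CPM in wound 2, and both Control flaps were low, at 6.40 and 38.6 CPM. Flap B of PITX1+ wound 2, short in activated cells, held the highest level. At least 1 Krt4 transcript was found in 0.433% of surface activated cells of the Control wound, 32.5% in PITX1+ wound 1 and 39.5% in PITX1+ wound 2. In surface comparison cells the shares were 0% (0 of 531, exact binomial upper bound 0.692%), 0.808% and 3.63%. Activated cells held a median of 211 transcripts and comparison cells 70, so these shares are not at equal depth.

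Sprr3, an envelope precursor abundant in oral and esophageal epithelium, moved the same way, at 67.3, 716 and 1456 CPM at the surface and 53.8, 155 and 181 CPM deeper. By flap its surface level was 51.2 and 116 CPM in the Control wound, 476 and 889 CPM in PITX1+ wound 1 and 1568 and 599 CPM in PITX1+ wound 2. At the surface the flaps did not overlap between conditions, but deeper they did, with 0 transcripts in the 168 cells of flap A of PITX1+ wound 1. Ptprz1, a receptor tyrosine phosphatase, moved the other way, at 1289, 521 and 470 CPM at the surface and 1648, 88.3 and 90.5 CPM deeper. Its surface level was 1268 and 1351 CPM in the Control flaps and between 378 and 669 CPM in the PITX1+ flaps.

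Several large differences over all activated cells lay in the deeper cells. The deeper activated cells did not lie in the same places. In the Control wound 217 of 253 lay within 500 µm of the front, against 236 of 1738 in PITX1+ wound 1 and 319 of 2197 in PITX1+ wound 2. The part of position in these differences was not tested. Flt1, a VEGF receptor best known from endothelium, stood at 129, 2562 and 2436 CPM over all activated cells, at 130, 215 and 730 CPM at the surface and at 125, 3960 and 3365 CPM deeper. Deeper by flap, it stood at 383 CPM in flap A and 4303 CPM in flap B of PITX1+ wound 1, and at 3375 CPM in flap A of PITX1+ wound 2. The high values came from the flaps with many deeper activated cells. The 5 endothelial markers together, Flt1 among them, stood at 197, 2693 and 2559 CPM in the activated cells of the 3 sections. In the separate contrast of activated with comparison cells, the other 4 markers were lower. The part of endothelial cells in the Flt1 values was not tested. Cxcl1, a neutrophil attractant, stood at 166, 2712 and 1890 CPM over all, at 130, 337 and 138 CPM at the surface and at 305, 4128 and 2844 CPM deeper. Il1b stood at 476, 987 and 410 CPM at the surface and 448, 2154 and 4029 CPM deeper. Sorl1, Ccl3 and Tnip3 were likewise called over all and in deeper cells but not at the surface, with 2, 3 and 4 transcripts in the Control wound. Of 16 alarmins and cytokines 8 were higher and 2 lower over all activated cells, beside 27.6% and 4.93% of all genes. The neutrophil markers in these cells stood at 798, 2180 and 3457 CPM. The part of neutrophils in these values was not tested.

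Genes lower in PITX1+ wounds included some of late differentiation, and here too the layers differed. Over all activated cells, of 10 cornification genes 3 were lower and 1 higher, and of 12 SPRR and inhibitor genes 3 were lower and 4 higher. Of all genes 4.93% were lower and 27.6% higher. Tgm3, the transglutaminase that cross-links the envelope, stood at 6687, 1548 and 1521 CPM over all, at 7751, 3941 and 4271 CPM at the surface and at 2795, 122 and 24.3 CPM deeper. Stfa3 stood at 45124, 10458 and 13759 CPM over all and at 51930, 23991 and 34466 CPM at the surface, where it was not called. Krt1 stood at 66922, 71706 and 83796 CPM at the surface, less than 2-fold apart, and at 25658, 1438 and 987 CPM deeper. Lor was 32062, 23955 and 35447 CPM at the surface. Wnt16, Wfdc3, Igfbp2, Pf4 and Des were the other named genes that were lower over all, and of them none was called at the surface. Pf4 stood there at 24.0, 10.2 and 0 CPM. Its 0 transcripts were set to 3 for the fold, which left it under 2-fold in that section. Des was higher there, at 24.0, 35.8 and 36.5 CPM. The 253 deeper activated cells of the Control wound, against 1738 and 2197, are the base of these deeper values. Most of those 253 lay within 500 µm of the front, unlike most deeper activated cells of the PITX1+ wounds.

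The 2 PITX1+ sections did not always go together. Krt77 stood at 442 CPM at the surface in the Control wound, 11988 in PITX1+ wound 1 and 917 in PITX1+ wound 2, and flap A of wound 1 alone reached 24946 CPM. Mt4, a metallothionein of stratified epithelium, was high in both, at 212, 2832 and 1679 CPM at the surface, where it was called, and at 125, 189 and 8.83 CPM deeper. S100a8 stood at 19618, 9771 and 25643 CPM over all, with the Control wound between the PITX1+ wounds. At the surface it stood at 21690, 10520 and 24334 CPM and deeper at 11915, 9324 and 26356 CPM. Areg stood at 3101, 3898 and 2352 CPM, Sprr2a3 at 33426, 26671 and 41037 CPM and Krt17 at 79625, 112185 and 115025 CPM. S100a8, Areg, Sprr2a3 and Krt17 were not called. Crabp2, at 16929, 35562 and 30661 CPM, reached 2-fold in 1 of the 2 PITX1+ sections, and Aldh1a3, at 1532, 6528 and 5314 CPM, was called over all and deeper but not at the surface (1217, 2091 and 1460 CPM).

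**Figure D5:**
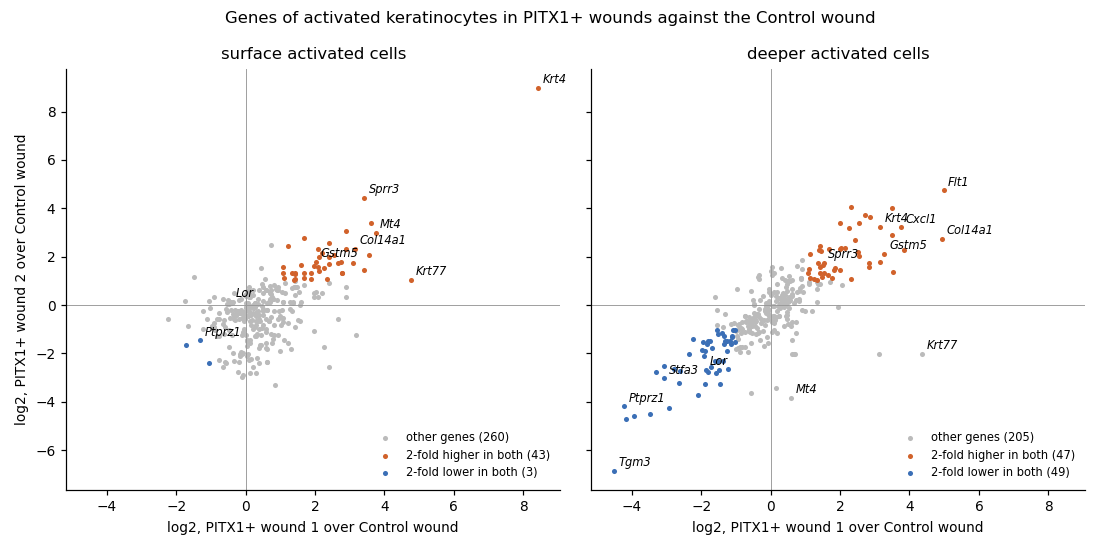
Log2 ratio of each gene in activated cells of PITX1+ wound 1 (horizontal) and PITX1+ wound 2 (vertical) over the Control wound, for surface and for deeper cells. The surface panel holds 43 genes at least 2-fold higher and 3 lower in both PITX1+ sections, and the deeper panel 47 and 49. Both axes share the Control section.

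On the TMM scale the median log2 difference of 10 cell cycle genes between activated and comparison cells was -0.63, beside -0.39 for all genes. By library size, on which the median of all genes was -1.84, the 10 listed cell cycle genes together stood at 12349, 7866 and 3545 CPM in the activated cells of the Control wound and PITX1+ wounds 1 and 2, and at 42841, 29400 and 20818 CPM in comparison cells. At least 2 such transcripts were found in 39.8%, 22.5% and 12.3% of activated cells and in 42.4%, 32.2% and 24.9% of comparison cells. With each cell thinned to 50 transcripts the shares were 13.2%, 7.02% and 2.66% against 37.4%, 28.3% and 19.1%. Every section had the lower share in activated cells (p = 0.25 by exact permutation of the signs, two-sided, below which 3 sections cannot go). Thinning left out cells with fewer transcripts, which kept 945, 2677 and 3238 activated and 1615, 2550 and 3056 comparison cells. At the surface, without thinning, the Control wound went the other way, with 37.7% of activated and 28.1% of comparison cells. With thinning it was 11.3% against 15.9%. Of the 10 genes Cenpf and Uhrf1 fell in activated cells, by 1.22 and 1.44 on the log2 scale, and 0 rose, where 35.3% of all genes fell. By library size 10 of 10 were lower, as were 195 of all 320 genes. Against comparison cells with at least 3 Krt5 transcripts 8 of 10 were lower, beside 78 of 304 genes.

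Among activated cells the share with cell cycle transcripts was highest in the Control wound as a whole. Thinned, it was 11.3%, 8.70% and 2.58% at the surface and 18.7%, 6.11% and 2.69% deeper. At the surface the PITX1+ sections lay farther from each other than PITX1+ wound 1 did from the Control wound, and the condition was not tested. The flaps overlapped, since surface cells of flap A of PITX1+ wound 1 held 5706 CPM of Hist1h1b and 2365 CPM of Top2a, above the Control flaps (4572 and 3822 CPM, 1927 and 2220 CPM).

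Activated cells had fewer marker-positive cells of other types within 50 µm than comparison cells did. For cells with at least 2 neutrophil marker transcripts the means were 1.22, 4.50 and 5.31 around activated cells and 3.30, 7.65 and 17.0 around comparison cells. For macrophage markers they were 1.87, 5.76 and 6.01 against 6.78, 11.1 and 17.4, and for fibroblast markers 3.08, 8.10 and 11.6 against 13.6, 15.7 and 25.6. The number was lower around activated cells in 3 of 3 sections for each of 6 cell types (exact p = 0.25 for each, 0.25 adjusted over the 6 types). Against comparison cells with at least 3 Krt5 transcripts the mean difference for neutrophil-marker cells was -0.64 in place of -5.63. T cell marker cells did not keep this order within layers. Deeper they were at 0.245 around activated and 0.175 around comparison cells of the Control wound and at 0.808 and 0.747 in PITX1+ wound 1, and at the surface of PITX1+ wound 2 at 0.272 and 0.258. At the surface of the Control wound, neutrophil-marker cells were instead at 1.15 around activated cells and 0.896 around comparison cells. Neutrophil-marker cells were 3261, 7212 and 17558 in the 3 sections, and their number around all activated cells followed the same order, while at the surface it was 1.15, 1.41 and 0.949.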

How the data were processed

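The authors deposited, for each Xenium slide, decoded transcripts with a position, a cell and a quality score (phred scale), and a table of cells with transcript counts and cell outlines. Other deposited columns used were positions and areas in µm. The software version behind the cell outlines was not given in the sources used here. Transcripts with a score of at least 20 were kept, and transcripts of control probes made 0.0375% to 0.0981% of calls. Summing these transcripts gave the deposited count in 100% of cells.

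Sections were formed by chaining cells within 200 µm. Sums of counts per section and class were tested with edgeR 4.0.16 in R 4.3.3 (quasi-likelihood, filterByExpr, TMM, section as a block, Benjamini-Hochberg, threshold 0.05), with DESeq2 1.42.0 as an alternative. In simulated data for the main comparison of classes the fit called 98.0% of genes changed 2-fold, 100% of those changed 4-fold and 2.50% of unchanged genes. For the surface and near-front comparisons it called 87.5% and 87.7% of genes changed 2-fold. The simulated counts had a fixed spread between sections and as many rises as falls, so these shares do not measure the fit's power in the real data. The conditions (1 against 2 sections) were compared by a 2-fold rule without a test, with 0 transcripts set to 3 for the fold. Positions and shares used Python 3.11.15 and scipy 1.17.1. Cells of 2 classes in 1 section are not independent replicates, and the block pairs them by section. Slides shared 1 to 7 cell identifiers. Doublets were not called, since cells were outlined on the image.

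Genes named were the markers, those chosen for wound and oral-like keratinocytes, the 10 with the largest change each way between classes, the 8 each way between conditions, and members of lists; a gene this rule names is not reported here. Members, lists and rules were chosen with earlier results of these data known.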

Additional observations from a re-analysis of the deposited data

Results flagged for a closer look

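Igfbp3 went opposite ways between conditions in the contrast of activated over comparison cells, at a log2 difference of 0.671 in the Control wound and of -0.904 and -0.852 in PITX1+ wounds 1 and 2, on the TMM scale. The difference between the conditions was not tested. By library size it was negative in all 3, at -1.12, -2.19 and -2.15.

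Cells that meet the same rule were also present on slides that the comparisons do not use. They made 1.33% of cells with at least 10 transcripts in male unwounded skin, 2.42% in female unwounded skin and 6.04% in buccal mucosa, against 5.58% on the wounded slide. In those of buccal mucosa Krt4 stood at 97314 CPM and Krt1 at 411 CPM, and in those of the wounded slide at 3085 and 34262 CPM. In male unwounded skin they stood at 3811 and 1369 CPM and in female unwounded skin at 1927 and 66834 CPM. S100a8 stood at 1427, 3109 and 279 CPM on the male, female and buccal slides and at 18983 CPM on the wounded slide. Both unwounded skin slides hold Control and PITX1+ tissue.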

How the results depend on the processing

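The count of genes that differed between activated and comparison cells was 208 and lay between 144 and 239 over its alternatives. Without section as a replicate block it was 182, and leaving out each section gave 150 to 237. Of 29 named genes, Il1b reversed with comparison cells of at least 3 Krt5 transcripts (1.22). Other alternatives gave 539 values on the same side of the threshold, 5 weaker and 5 stronger.

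Surface against deeper activated cells gave 51 genes, but 85 with a limit of 50 µm, 79 with 100 µm, 108 beyond 500 µm of the front, 89 by DESeq2, 83 by library size and 11 to 103 without each section. Near against far cells gave 12, but 0 with 250 µm, 39 by straight distance, 34 by DESeq2, 46 by library size and 0 to 29 without each section. PITX1+ against Control gave 99 genes, but 46 at the surface, 153 at 1.5-fold, 135 to 138 with either PITX1+ section alone and 25 of 306 by edgeR with the lone Control section taken to vary like the others (93 at an unadjusted p under 0.05). Of 176 values of 16 named genes under alternatives 81 moved by less than the SD of the 2 PITX1+ sections, 94 by more and 1 reversed, Des at the surface with 0.59.

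The share of activated cells was 11.4 percentage points higher in PITX1+ than Control wounds. It was 16.3 with a threshold of 4, 2.67 with 16, 15.0 with any quality score, 11.9 with at least 20 transcripts per cell, 14.1 with comparison cells of at least 3 Krt5 transcripts, 6.45 without follicle genes in them, 13.0 without flap B of PITX1+ wound 2, 0.759 over all cells, and 11.1 to 11.8 with either PITX1+ section alone. The surface difference beyond 1500 µm was 55.6 points, 38.8 with a threshold of 16 and 48.0 to 63.1 with either PITX1+ section alone. Cycling shares (main difference -8.29 points, -11.1 to -6.12 without each section) and neutrophil-marker neighbors (-5.63, -7.40 to -2.62) kept the sign of their mean over sections under every alternative run, with -0.64 against comparison cells of at least 3 Krt5 transcripts. The causes were not tested. The surface and near-front comparisons, and the settings by layer and flap, were added after seeing the data. The Control wound held 253 deeper activated cells, which limits its deeper values.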
